A study of Mus musculus with 6 samples.

Results

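The linker histone H1 genes are the 7 somatic H1 genes H1f0, H1f1, H1f2, H1f3, H1f4, H1f5 and H1f10, taken by symbol from a table of 55416 mouse gene identifiers. In older names H1f1 is Hist1h1a, H1f2 is Hist1h1c, H1f3 is Hist1h1d, H1f4 is Hist1h1e, H1f5 is Hist1h1b and H1f10 is H1fx. All 7 passed the filter on low counts, as did 17679 genes in all. The family was selected on the rise of the H1f0 counts in DS38 over DMSO, the comparison described here, so the members' values in that comparison are a description, and no p-value is given for them.

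RNA was sequenced from MB21, a mouse medulloblastoma cell line that is mutant for ptch in every sample, cultured in suspension in DMEM/F12 with B27. The DS38 group (3 libraries) received DS38, a derivative of benzarone, at 10 uM, and the DMSO group (3 libraries) received its vehicle. Samples were taken after 1 day according to the titles and the treatment protocol, whereas the design text of the series names 5 days. The labels do not say that replicates were separate cultures, so the spread between libraries may be technical.

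Linker histones bind the nucleosome where DNA enters and leaves it and help chromatin to fold. The cluster genes H1f1 to H1f5 are known as replication-dependent genes: they are transcribed mainly in S phase, and their mRNAs typically end in a conserved stem-loop with no poly(A) tail. H1f0 and H1f10 lie outside that cluster and give polyadenylated mRNAs in all phases of the cycle, and H1f0 is known to accumulate in cells that stop dividing or differentiate. The library kit captures RNA by its poly(A) tail, so the 2 kinds of H1 mRNA are not recovered equally.

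The ends of the gene models divided the family. The histone stem-loop was searched by its conserved 16-base pattern, and it was present in 0.0629% of 58797 protein-coding transcripts of the GENCODE M21 annotation (GRCm38). It was whole in the transcripts of H1f2, H1f3 and H1f4, and in H1f1 the model stopped 1 base short of its end. These 4 sites are shown because they mark the members with a histone-type 3′ end. Capitals mark the stem, and the loop and the flanks are in lower case.
H1f1: ccaacGGCTCTtttcAGAGC
H1f2: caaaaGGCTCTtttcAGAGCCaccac
H1f3: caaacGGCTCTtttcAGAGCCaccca
H1f4: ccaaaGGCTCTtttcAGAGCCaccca
The models of H1f2, H1f3 and H1f4 went on past the stem-loop, by 840, 4884 and 1153 bases. The model of H1f5 ended at the stop codon, so it holds no site. A poly(A) signal of the form AATAAA lay in the last 50 bases of the H1f0, H1f2 and H1f10 transcripts and of no other member, against 40.5% of protein-coding transcripts. H1f2 was thus the one member whose model held both a stem-loop and a terminal AATAAA. The H1f1 and H1f5 models stop inside the stem-loop and at the stop codon, so they cannot show whether an AATAAA follows.

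The sequences before the annotated starts also fell into groups. RefSeq promoters (GRCm38.p6) were found for all 7 members, and the 250 bases before each start were searched on both strands for 4 motifs. These were AAACACA, known as the H1 box, CCAAT, the GC box GGGCGG and the TATA-type motif TATAAA. The shares of promoters given beside them count a match on either strand at any position in the 250 bases. They are not shares for the strand and position of the members' matches. The H1 box was present before H1f2, H1f3, H1f4 and H1f5, in the sense direction and with its first base 112 to 122 bases before the start, against 6.25% of 32851 promoters. CCAAT lay in the sense direction 51 to 56 bases before the start of all 5 cluster genes (33.8% of promoters), and H1f5 held a further sense and an antisense copy. TATAAA lay in the sense direction 26 to 33 bases before H1f1, H1f3, H1f4 and H1f5 (12.4% of promoters). H1f3 also held antisense copies of it, 153 and 145 bases before the start. The H1f0 window held none of the 4 motifs, and the H1f10 window held 1 antisense GC box (32.7% of promoters). The GC box was not particular to H1f10 in the family. It also lay in the sense direction before H1f1 and H1f5, and in both directions before H1f4. Absence says only that these letters are not in this window. The 4 windows below are shown to set the most abundant members, H1f0, H1f10 and H1f2, beside a cluster gene with all 4 motifs, H1f4. Capitals mark the motifs.
H1f0, chr15:79027962-79028211, plus strand: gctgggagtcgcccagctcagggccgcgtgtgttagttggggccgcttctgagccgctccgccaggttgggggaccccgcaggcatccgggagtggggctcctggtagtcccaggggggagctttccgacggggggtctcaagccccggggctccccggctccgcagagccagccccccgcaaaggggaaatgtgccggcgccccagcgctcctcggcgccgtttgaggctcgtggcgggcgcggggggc
H1f10, chr6:87981483-87981732, minus strand: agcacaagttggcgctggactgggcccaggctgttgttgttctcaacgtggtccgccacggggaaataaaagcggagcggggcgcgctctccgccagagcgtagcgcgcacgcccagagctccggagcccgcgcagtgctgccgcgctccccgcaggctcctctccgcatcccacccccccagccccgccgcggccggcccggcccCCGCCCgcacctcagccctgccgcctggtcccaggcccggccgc
H1f2, chr13:23738557-23738806, plus strand: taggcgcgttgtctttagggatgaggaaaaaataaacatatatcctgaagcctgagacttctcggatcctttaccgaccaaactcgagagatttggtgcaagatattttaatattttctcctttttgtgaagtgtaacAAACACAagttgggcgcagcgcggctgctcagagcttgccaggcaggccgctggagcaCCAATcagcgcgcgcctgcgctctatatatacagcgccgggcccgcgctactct
H1f4, chr13:23622559-23622808, minus strand: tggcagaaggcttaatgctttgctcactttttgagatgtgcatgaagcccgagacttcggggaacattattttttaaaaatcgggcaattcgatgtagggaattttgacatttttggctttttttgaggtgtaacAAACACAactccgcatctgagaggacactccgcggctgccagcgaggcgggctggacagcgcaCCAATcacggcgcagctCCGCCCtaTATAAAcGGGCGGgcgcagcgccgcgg
G and C made up 74.4% of the H1f0 window and 75.2% of the H1f10 window, against 47.6% to 54.8% in the 5 cluster genes. The positions are those of GRCm38.p6; the submitters' processing notes name GRCm39 for mouse, and the positions were not converted.

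**Figure D1:**
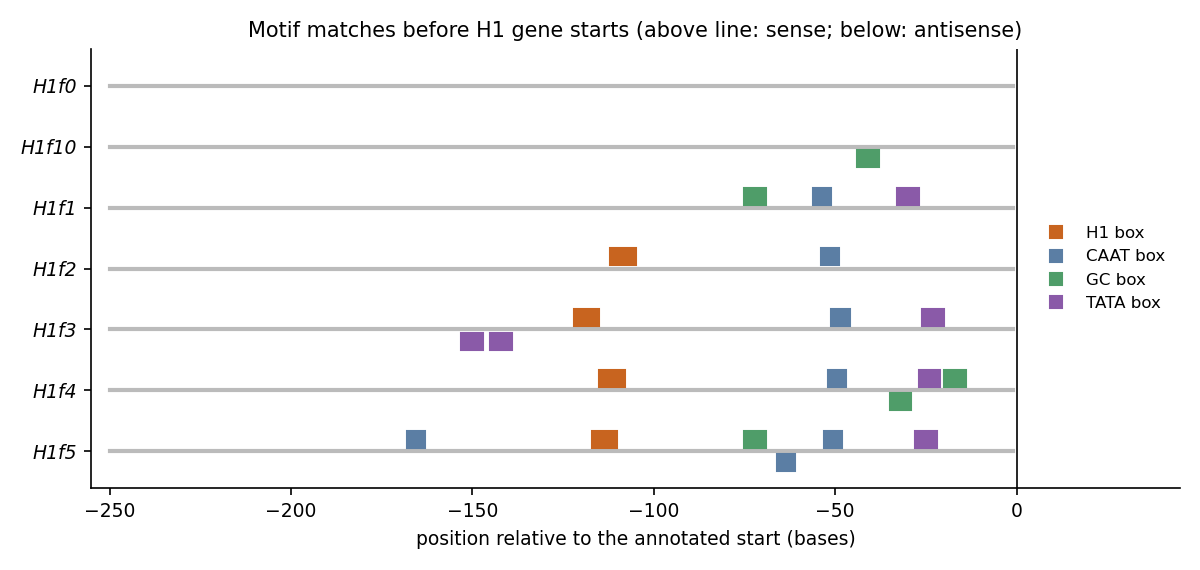
Positions of the 4 motifs in the 250 bases before the annotated start of each H1 gene, in bases from the start; boxes above a line match in the sense direction and boxes below it in the antisense direction. The H1 box stands 106 to 122 bases before H1f2 to H1f5, and the H1f0 line carries no box.

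The DMSO libraries held 38840296 to 50014681 counts, and the DS38 libraries, all of them deeper, held 60434089 to 84044428. The first principal component separated the groups, and DMSO replicate 3 stood apart from the other libraries on the second. In chi-square over degrees of freedom, DMSO replicate 3 differed from the DS38 libraries by 10.7 to 12.9, and DMSO replicates 1 and 2 by 24.2 to 28.9. Pairs within DMSO differed by 8.57 to 9.61 and pairs within DS38 by 2.91 to 3.56. Markers of granule neuron progenitors were all tested (8 of 8), at a summed 1962 to 2008 CPM (counts scaled to library size) in DMSO and 2004 to 2031 in DS38. By edgeR's test at an adjusted p of 0.05, 3 of these 8 rose and 4 fell, against 12.9% of all tested genes called higher and 11.7% lower. On the log2 scale Atoh1, Barhl1 and Meis1 rose by 0.33 ± 0.028 (SE), 0.27 ± 0.030 and 0.11 ± 0.028, and Neurod1, Zic2, Gli1 and Zic1 fell by 0.37 ± 0.036, 0.14 ± 0.029, 0.15 ± 0.035 and 0.10 ± 0.030. Markers of other cell types were mostly low or untested, but in 3 of these lists 1 gene rose in DS38, as H1f0 did. In the mature neuron list 2 of 4 tested genes rose, as given further below. Of 5 oligodendrocyte markers, all tested, Olig1 was at 19.86 ± 0.480 CPM in DMSO and rose to 22.76 ± 1.23 in DS38 (SD, n = 3, edgeR adjusted p = 0.00799), and the list summed to 23.84 to 24.90 CPM in DMSO and 26.24 to 29.06 in DS38, without overlap. Of 2 tested astrocyte markers (of 5), Gfap rose from 4.332 ± 0.241 to 5.402 ± 0.333 CPM (edgeR adjusted p = 0.0179), while Slc1a3, the larger part of a sum of 143.3 to 151.3 CPM in DMSO and 142.3 to 147.9 in DS38, was not called. Of 2 tested fibroblast markers (of 5), Col1a1 rose from 0.3731 ± 0.168 to 0.8218 ± 0.258 CPM (edgeR adjusted p = 0.0122), while Pdgfra, at 71.49 ± 0.405 and 69.97 ± 2.59 CPM, was not called; the list summed to 71.40 to 72.18 CPM in DMSO and 67.83 to 72.56 in DS38. The call of Olig1 was lost without DS38 replicate 2 and with the GC correction, that of Gfap without DMSO replicate 1 or DS38 replicate 2, and that of Col1a1 without DMSO replicate 2 or DS38 replicate 1. None of 5 microglia and macrophage markers passed the filter on low counts, and of 4 endothelial markers Pecam1 and Cdh5 passed it, both at means under 1 CPM and not called. Tyrobp, Kdr, Cldn5 and Gabra6 had 0 counts in every library, which allows up to 0.0357 to 0.0772 CPM per library. These limits cover counting error only.

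H1f0 had the highest level of the H1 genes in the poly(A)-captured RNA of MB21 cells, which does not recover cluster H1 mRNAs that lack a tail equally. Per length, in CPM per kilobase of the gene length in the deposited table, the DMSO mean was 256 ± 8.58 for H1f0 (SD, n = 3), 29.2 ± 2.49 for H1f10 and 8.46 ± 0.459 for H1f2. The cluster genes H1f5, H1f4, H1f1 and H1f3 followed at 1.40 ± 0.290, 0.864 ± 0.181, 0.785 ± 0.137 and 0.314 ± 0.0790. The ranges of H1f4 and H1f1 overlapped, and H1f5 lay just above H1f4, at 1.10 to 1.68 against 0.721 to 1.07. The place of H1f3 rested on its model of 7425 bases. Divided by coding length instead, DMSO means were 3.52 ± 0.885 CPM per kilobase for H1f3, 2.54 ± 0.530 for H1f4, 1.56 ± 0.322 for H1f5 and 0.910 ± 0.159 for H1f1, so H1f3 went from last to the next place after H1f2. H1f0 made up 86.2% ± 0.362 of the summed per-length H1 level in DMSO (SD, n = 3) and 88.7% ± 0.157 in DS38. In CPM, 98.7% of tested genes were below H1f0 in DMSO, 66.3% below H1f10, 51.0% below H1f2 and 18.1% to 33.5% below the other 4. The germline genes H1f8, H1f6 and H1f7 summed to 16, 3 and 1 counts over the 6 libraries, too few for a test.

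Of the 7 H1 genes, 3 were called higher and 0 lower in DS38, by edgeR's quasi-likelihood test at an adjusted p of 0.05. Over all tested genes that test called 12.9% higher and 11.7% lower, 24.5% in all. The count of 3 includes H1f0, on whose change the family was chosen, so nothing is read from it. The 3 were H1f0, H1f2 and H1f10, the most abundant members and those whose models, as annotated, held a terminal AATAAA. The median log2 fold change of the 7 was -0.12, against 0.004 over all tested genes. Groups did not overlap for 4 members, 3 higher and 1 lower in DS38, against 38.6% of tested genes (20.7% higher and 17.9% lower).

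H1f0 encodes H1.0, the replacement linker histone. It was at 518.4, 512.8 and 545.7 CPM in DMSO replicates 1 to 3 and at 798.2, 799.3 and 755.9 CPM in DS38 replicates 1 to 3. Every DS38 library was above every DMSO library, by more than the spread within either group. The mean was 525.6 ± 17.6 CPM in DMSO and 784.5 ± 24.8 CPM in DS38 (SD, n = 3). The log2 fold change was 0.58 ± 0.031 (SE), or 1.49-fold. These values rested on 21108 to 64387 counts per library. Among 2272 genes called higher, 247 had a larger log2 fold change than H1f0. Among the 246 tested genes at 500 CPM or more in DMSO, a level chosen after the values were seen, none had a larger one. Cd63, a lysosomal and exosomal tetraspanin, came next there with 0.35 ± 0.028.

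**Figure D2:**
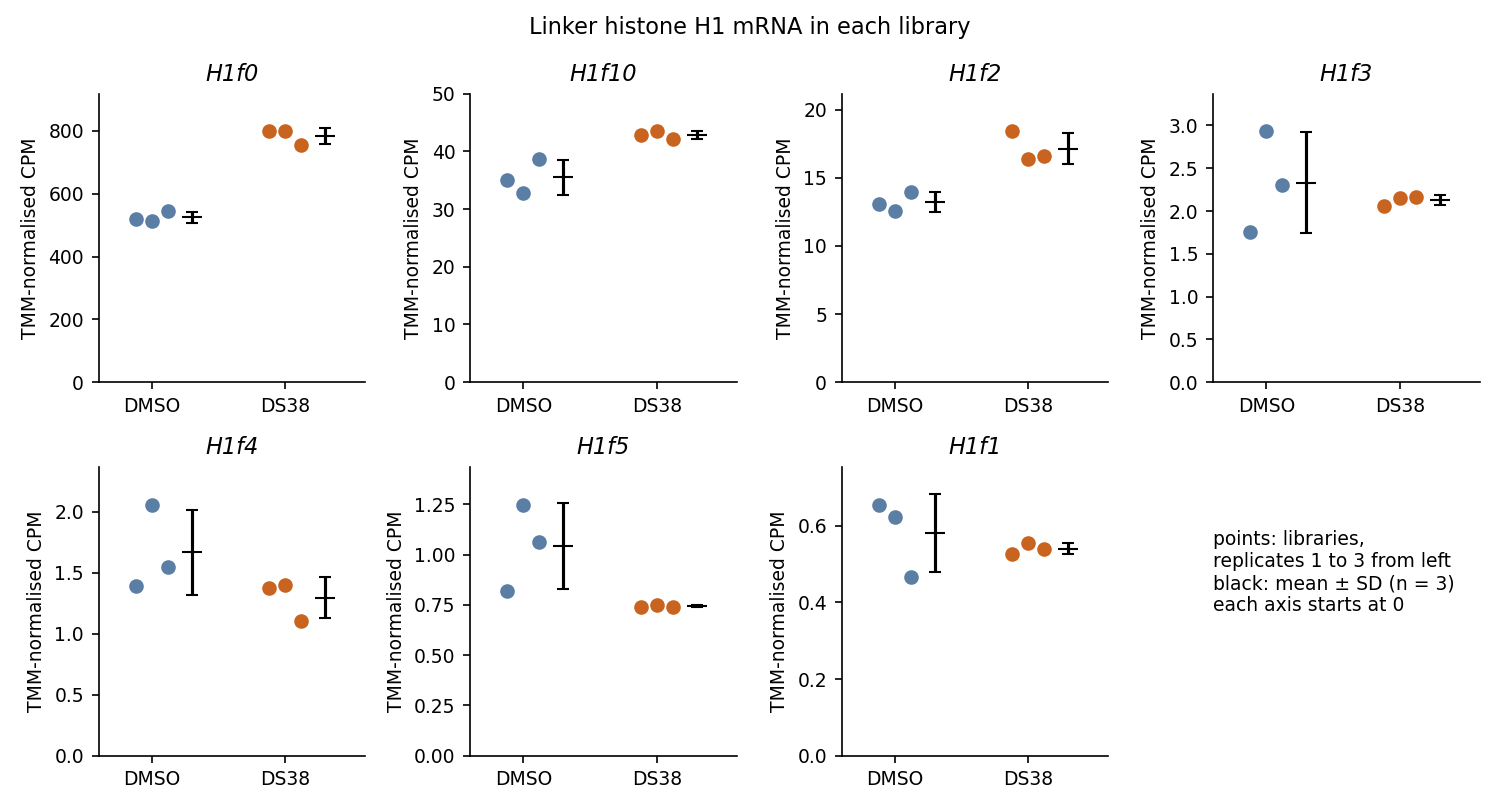
TMM-normalised CPM (vertical axis, from 0) of each H1 gene in the 3 DMSO and 3 DS38 libraries; points are libraries and black marks are mean ± SD. H1f0, H1f10 and H1f2 lie higher in every DS38 library, H1f5 lies lower, and the groups of H1f3, H1f4 and H1f1 overlap.

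H1f10 encodes H1.10, the most divergent of the somatic H1 proteins. It was at 34.98, 32.76 and 38.76 CPM in DMSO and at 42.80, 43.51 and 42.07 CPM in DS38. DMSO replicate 3 was the highest control, and all DS38 libraries lay above it. The log2 fold change was 0.27 ± 0.048 (SE), or 1.21-fold. H1f2 encodes H1.2, a cluster gene. It was at 13.04, 12.58 and 13.99 CPM in DMSO and at 18.42, 16.34 and 16.61 CPM in DS38. Again the groups did not overlap, and the log2 fold change was 0.38 ± 0.063 (SE), or 1.30-fold. For H1f0, H1f10 and H1f2 alike, DMSO replicate 3 was the highest and DMSO replicate 2 the lowest control. Without DMSO replicate 3 the log2 fold changes were 0.60 for H1f0, 0.42 for H1f2 and 0.33 for H1f10. The log2 CPM of the 3 genes over the 6 libraries correlated with Pearson's r of 0.927 to 0.958, a description in which the group difference and the scaling of each library are shared.

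The other 4 cluster genes were scarce, with 18 to 184 counts per library, and none was called. H1f5, which encodes H1.5, was at 0.8188, 1.248 and 1.060 CPM in DMSO and at 0.7397, 0.7502 and 0.7396 CPM in DS38. Its DS38 libraries were all below the controls, with a log2 fold change of -0.49 ± 0.22 (SE). H1f4 (H1.4) was at 1.392, 2.059 and 1.551 CPM in DMSO and at 1.379, 1.403 and 1.104 CPM in DS38, with a log2 fold change of -0.37 ± 0.18. Its groups overlapped, since DMSO replicate 1 lay below DS38 replicate 2. H1f3 (H1.3) was at 1.760, 2.933 and 2.301 CPM in DMSO and at 2.056, 2.153 and 2.160 CPM in DS38, with a log2 fold change of -0.14 ± 0.16. The DS38 libraries lay inside the DMSO range. Without DMSO replicate 2 that log2 fold change was 0.077. H1f1 (H1.1) was at 0.6550, 0.6240 and 0.4654 CPM in DMSO and at 0.5265, 0.5545 and 0.5400 CPM in DS38, with a log2 fold change of -0.12 ± 0.27. Here too the groups overlapped. The 95% intervals were -0.76 to 0.005 for H1f4, -0.47 to 0.20 for H1f3, -0.68 to 0.44 for H1f1 and -0.94 to -0.03 for H1f5. They are not adjusted for the number of genes tested, and H1f5 was not called after that adjustment. DMSO replicate 2 held the highest value of H1f3, H1f4 and H1f5 in any library.

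**Figure D3:**
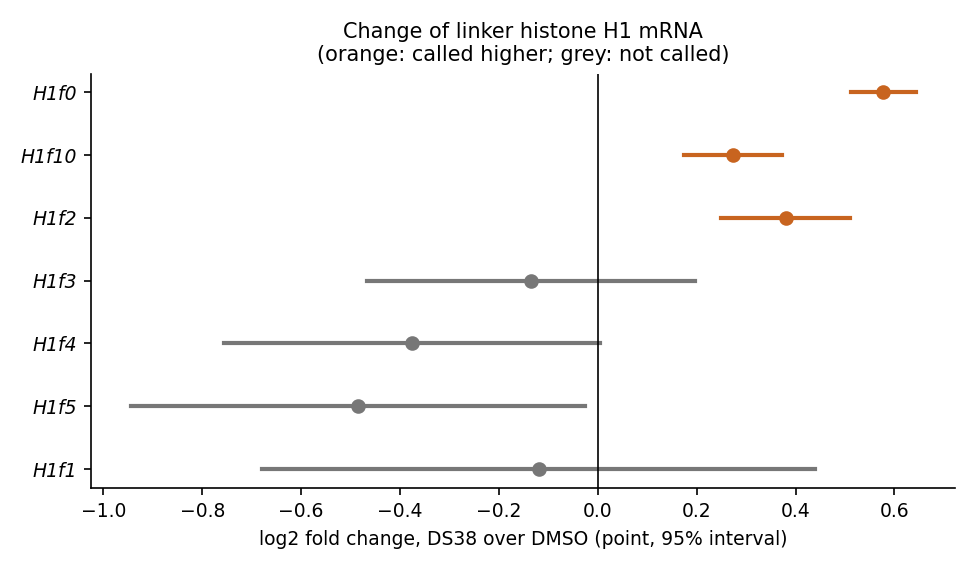
Log2 fold change of DS38 over DMSO for each H1 gene (horizontal axis), as a point with its 95% interval from edgeR. The intervals are not adjusted for the number of genes tested. H1f0 (0.58), H1f2 (0.38) and H1f10 (0.27) lie to the right of 0, and the intervals of the 4 scarce cluster genes are wider.

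The family sum followed H1f0. Summed over the 7 members, the per-length level was 288.5 to 309.5 CPM per kilobase in DMSO and 415.6 to 438.1 in DS38. The sum over H1f1, H1f3, H1f4 and H1f5 was 4.626, 6.864 and 5.378 CPM in DMSO and 4.701, 4.860 and 4.543 CPM in DS38, so the groups overlapped. As a share of the per-length H1 level, H1f10 was at 9.82% ± 0.479 in DMSO and 8.17% ± 0.145 in DS38 (SD, n = 3), although its own level was higher in DS38. The share of H1f2 was 2.85% ± 0.0509 in DMSO and 2.55% ± 0.152 in DS38. In bulk RNA, more cells with an mRNA and more mRNA per cell cannot be told apart.

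**Figure D4:**
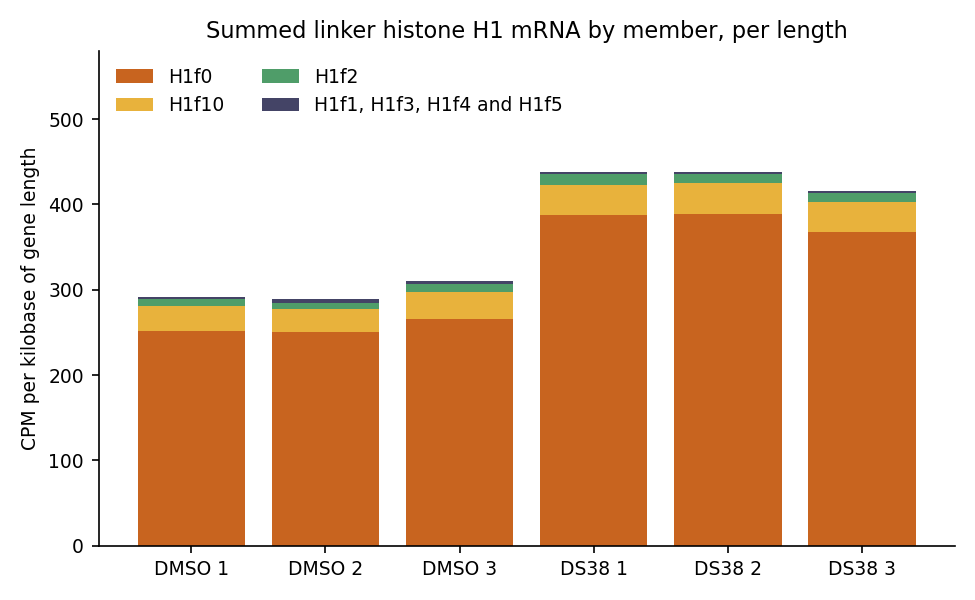
Summed H1 mRNA in each library, in CPM per kilobase of gene length (vertical axis, from 0), with 1 coloured segment per member and the 4 scarce cluster genes together. H1f0 fills most of every bar, and the bars reach 288.5 to 309.5 in DMSO and 415.6 to 438.1 in DS38.

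Reads of some members cannot be placed with certainty, since no source used here gives the strand setting or the treatment of multi-mapping reads. Of the 50-base windows of the H1f4 transcript, 32.0% also occurred in a transcript of another gene, among them H1f2, H1f3 and the overlapping H2bc6. The shares were 14.0% for H1f10, 8.54% for H1f2, 5.68% for H1f0 and 2.25% for H1f3, and 0 for H1f1 and H1f5. The shared windows of H1f0 all lay in an antisense gene, Gm49544, which was at 0.931 CPM in DMSO and 0.921 CPM in DS38. Those of H1f10 lay in the antisense gene Gm5577, which fell from 5.796 to 4.525 CPM (edgeR adjusted p = 0.0134), opposite to H1f10. If strand was not used in counting, reads of each pair cannot be told apart where they overlap.

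Genes next to H1f0 were not called higher. Of the nearest protein-coding genes in GENCODE M21, Nol12 (log2 fold change -0.07 ± 0.047, SE) and Triobp (-0.07 ± 0.040) did not pass, and Gcat, an enzyme of threonine breakdown, fell by 0.47 ± 0.13 (edgeR adjusted p = 0.0107). Beside H1f10, Rab7, a small GTPase of late endosomes, rose by 0.12 ± 0.030 (edgeR adjusted p = 0.00634). Copg1, Hmces and Rpn1 did not pass, with log2 fold changes of 0.03, 0.006 and 0.05. Around H1f2, the histone genes H4c3, H3c3 and H2bc3 were at means of 0.383 to 1.12 CPM and were not called.

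The genes most like H1f0 over the 6 libraries were Iars2 (mitochondrial isoleucyl-tRNA synthetase), Cd63, Opcml, Atoh1 (the transcription factor that defines granule neuron progenitors) and Ajuba. They were taken by Pearson's r of log2 CPM with H1f0, 0.998 to 0.9998, among 10016 genes with a mean of at least 5 CPM. With 6 libraries in 2 groups, such values mostly restate the group difference. Their sizes differed: Opcml had a log2 fold change of 0.80 ± 0.095 (SE), Atoh1 of 0.33 ± 0.028, Ajuba of 0.28 ± 0.046 and Iars2 of 0.14 ± 0.030.

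Other histone genes gave the setting for H1. Of 64 core histone genes listed as replication-dependent by symbol alone, 45 were tested. Of these, 1 rose and 3 fell, with a median log2 fold change of -0.24. Over all tested genes 12.9% were called higher and 11.7% lower, so these counts are not above that share. H2bc4 was at 12.03 ± 0.957 CPM in DMSO and rose to 13.88 ± 0.705 CPM in DS38 (SD, n = 3, with an edgeR adjusted p = 0.0259). H2bc21 fell from 61.05 ± 0.811 to 52.36 ± 1.26 CPM (edgeR adjusted p = 6.602e-05), and on the log2 scale H2bc6 fell by 0.30 ± 0.11 and H2ac10 by 1.37 ± 0.47. The rise of H2bc4 was lost without DMSO replicate 1 or 2 or DS38 replicate 1 or 2, and 1 gene fell with DESeq2, with the stricter filter and without DMSO replicate 1. Many of these genes are near-identical copies, and 31 of the 45 were under 1 CPM in DMSO. A terminal AATAAA was found in the models of 9 of the 45. Of these 9, 0 rose and 1, H2bc21, fell, with a median log2 fold change of -0.06. The H2bc21 model held no stem-loop, so its place among replication-dependent genes rests on its symbol. Its 61.05 CPM was a large part of the list's summed 125.0 to 131.0 CPM in DMSO. Among 9 core histone variants from genes outside that set 1 rose and 0 fell: H3f3b, which encodes histone H3.3, went from 1274 ± 14.6 to 1496 ± 25.5 CPM (edgeR adjusted p = 2.146e-06). Its sister gene H3f3a, which encodes the same protein, was at 711.8 ± 9.13 and 710.3 ± 16.4 CPM. With library size alone or without DMSO replicate 3, 3 of these variants rose. The number that fell was 1 with RLE scaling, with the stricter filter and without DS38 replicate 3, and 2 with the length or the GC correction.

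Among genes that make or carry histones more fell than rose, while over all tested genes 12.9% were called higher and 11.7% lower. Of 13 factors of histone mRNA transcription and 3′ processing 0 rose and 5 fell (median log2 fold change -0.03). Slbp, which binds the stem-loop, fell by 0.11 ± 0.030 (SE), Casp8ap2 (FLASH), a factor of histone 3′ processing, by 0.17 ± 0.030, and Srrt and Cpsf2 by 0.20 ± 0.030 and 0.14 ± 0.027. 3 of them fell under library size alone, and 3 fell when DS38 replicate 1 or 2 was left out. Of 16 tested chaperones, importins and HMG proteins that bind histones or compete with H1, 2 rose and 8 fell (median -0.08), or 3 rose and 5 fell with library size alone. Hmgn5, an HMG protein known to counter linker histones, fell by 0.36 ± 0.032, and Npm1, Hmgb2 and Nap1l1 fell by 0.18 ± 0.027, 0.13 ± 0.027 and 0.13 ± 0.027. Hmga1 and Hmgn3 rose by 0.15 ± 0.035 and 0.15 ± 0.036. Nasp, an H1 chaperone named here with its value known, fell by 0.11 ± 0.026.

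Histone deacetylases and cell-cycle genes were read because H1f0 is known to respond to deacetylase inhibitors and to arrest. The share to set beside their counts is 12.9% of all tested genes called higher and 11.7% lower. Of 10 tested deacetylases 2 rose and 2 fell (median log2 fold change 0.03): Hdac7 and Hdac5 rose by 0.31 ± 0.039 and 0.15 ± 0.032 (SE), and Hdac9 and Hdac4 fell by 0.25 ± 0.045 and 0.21 ± 0.039. Of 28 G1/S genes 0 rose and 21 fell, with a median of -0.15 and the smallest p-values in Ccne2, Tyms, E2f8 and Mcm4, which fell by 0.42 ± 0.033, 0.30 ± 0.034, 0.27 ± 0.032 and 0.22 ± 0.027. Of the mature neuron markers Snap25 and Syt1 rose by 0.32 ± 0.0585 and 0.29 ± 0.0599, while Rbfox3 and Camk2a had log2 fold changes of -0.02 and -0.28 and were not called. The summed level of the neuron list was 121.5 to 124.8 CPM in DMSO and 123.7 to 130.6 CPM in DS38. The part of cell-cycle state or cell makeup in the level of H1f0 was not tested.

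**Figure D5:**
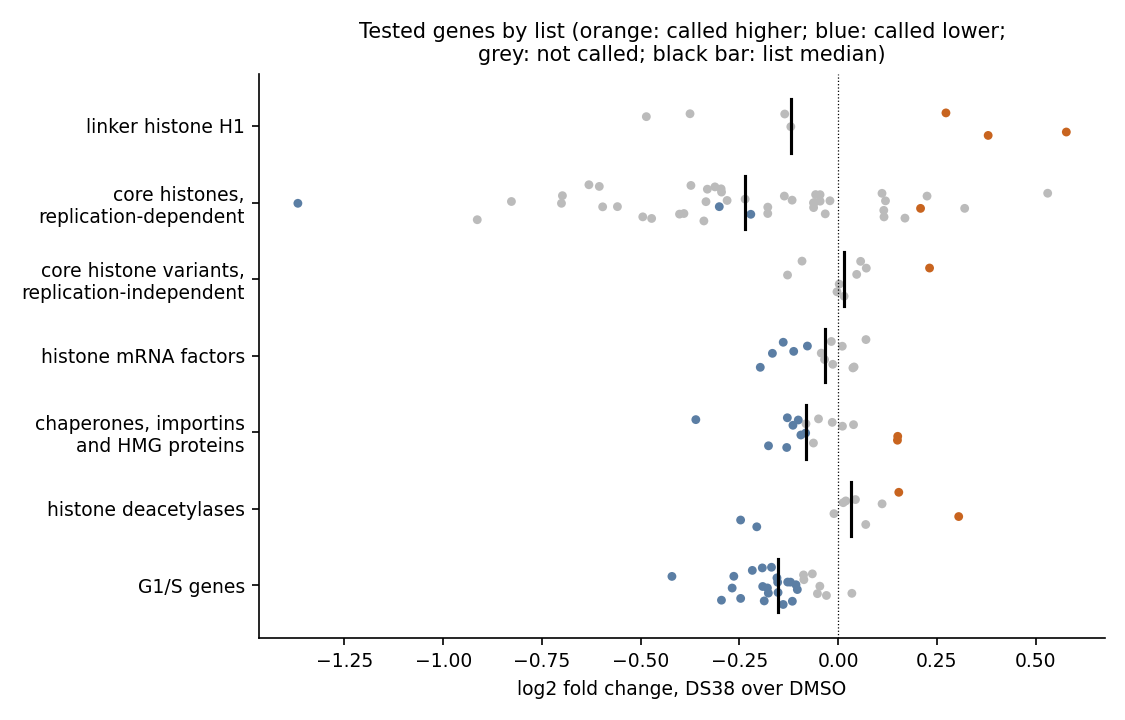
Log2 fold change of DS38 over DMSO (horizontal axis) for every tested gene of 7 lists; each point is a gene, coloured by its call, and black bars are list medians. H1f0, on whose rise the family was chosen, lies at 0.58, to the right of every other point. Of 28 G1/S genes 21 are called lower, against 11.7% of all tested genes.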

How the data were processed

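Messenger RNA of 6 libraries, 3 per group, was counted per gene. The authors deposited 1 table of raw read counts with a gene length in bases. The submitters' processing notes list STAR 2.7.9a, featureCounts, Subread 2.0.3, R 4.1.0, edgeR and the builds GRCm39 and GRCh38.p13, with no role or order; the strand setting is not given in the sources used here. Symbols were matched for 52083 of 55416 identifiers, and older histone names were brought up to date through RefSeq. With R 4.3.3, genes were kept by filterByExpr (minimum count 10, minimum total count 15), scaled by TMM and tested with edgeR 4.0.16 (two-sided quasi-likelihood test, group as the sole term, Benjamini-Hochberg adjustment over 17679 genes, threshold 0.05). The test was also run on counts simulated from edgeR's own fitted model, which cannot show how well that model holds for these libraries. Changes are given as log2 (DS38 over DMSO).

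The members and the lists (H1 germline genes, core histones and variants, histone mRNA factors, chaperones, deacetylases, G1/S genes, cell type markers) were chosen with earlier results of these data known. All members are named; from other lists the 4 called genes of smallest p in each direction are named, or the 2 of smallest p where none was called, with exceptions stated. For H1f0 the 5 genes of highest correlation are named. Alternatives were DESeq2 1.42.0, limma 3.58.1 with voom, RLE scaling, library size alone, leaving out each library, a block by replicate number, robust dispersion, no filter on counts, and a filter at 5 CPM in 3 libraries. Thinning to the smallest library and corrections for gene length and GC content (50 bins) were chosen after seeing the data. Within-group pairs of libraries differed by at least 2.91 times their chi-square degrees of freedom, so none was a duplicate.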

Additional observations from a re-analysis of the deposited data

How the results depend on the processing

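H1f0, H1f2 and H1f10 were called higher in all 17 alternatives, and no H1 gene was called lower in any. The main fit called 12.9% of all tested genes higher and 11.7% lower. All alternatives reused these libraries, and the family was chosen on the rise of H1f0 in them. They therefore show dependence on processing and are no separate test of that rise. The log2 fold change ran from 0.53 (length correction) to 0.61 (library size alone) for H1f0, from 0.32 to 0.42 for H1f2 and from 0.20 (GC correction) to 0.33 for H1f10. H1f1, H1f4 and H1f5 stayed below 0 in the 16 alternatives that tested them. H1f3 changed sign without DMSO replicate 2 (0.0770) and after thinning to the smallest library (0.0152); the cause was not tested, and it was not called in either. With 1 library left out at a time, it ranged from -0.3124 to 0.0770. The stricter filter removed these 4 genes, whose 18 to 184 counts per library limit their precision. Same-numbered libraries of the groups did not deviate together (correlations of 0.035, -0.011 and -0.027). Such values cannot tell whether the libraries were handled as pairs, and the labels do not say. With the replicate number as a block, 2108 of 17679 tested genes were called higher and 1902 lower. The H1 count, which includes H1f0 by selection, was 3 higher and 0 lower. Library size alone called 3289 genes higher and 1543 lower (68.1% of calls higher), against 2272 and 2068 (52.4%).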
